A study of Lemna gibba and Lemna japonica and Spirodela polyrhiza with 12 samples.

Results

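Long 24 nt loci read from both strands are stretches of more than 600 bp listed as single sources of mostly 24 nt small RNAs, the size known from the plant pathway of RNA-directed DNA methylation. They were taken from lists of small RNA loci in 4 duckweeds, which are small floating aquatic plants. A locus was included when 24 nt was the dominant size of its reads, when it was assigned to neither strand, when it was no microRNA hairpin, when it lay on a numbered chromosome and when its listed length exceeded 600 bp. Size class, strand and length come from the reads themselves, so the loci were chosen by these 3 measured properties, which are given as descriptions. Of 79572 listed loci, 8265 met the rule: 76 belonged to Lg7742a, 375 to Lj8627, 335 to Sp9509 and 7479 to Wa8730. Those of 600 bp or less that met all other parts of the rule are called short here and numbered 1398, 5855, 573 and 20306 in the same order of accessions.

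Whole fronds of Lg7742a (Lemna gibba), Lj8627 (Lemna japonica), Sp9509 (Spirodela polyrhiza) and Wa8730 (Wolffia australiana) were grown as sterile cultures in sucrose medium, with no treatment named and 3 biological replicates each. Duckweeds grow mainly by clonal budding, so each accession stands for 1 genotype of its species. Lemna japonica is a hybrid of Lemna minor and Lemna turionifera, and its assembly carries both an M and a T chromosome set, after the last letter of the chromosome names. Because the 3 replicates of every accession were combined before counting, replicate error is unknown and no difference was tested. All intervals below are 95% intervals that cover counting error only, and they treat loci as independent, which neighbouring loci may not be. Intervals for shares of reads treat single reads as independent, although reads are grouped in loci. Lg7742a had 5005362 reads in all its loci, Lj8627 had 5394332, Sp9509 had 7197515 and Wa8730 had 5649845.

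In flowering plants, RNA polymerase IV transcribes transposons and other repeats, an RNA-dependent RNA polymerase makes the complementary strand, and a Dicer-like enzyme cuts the double strand into 24 nt pieces. Argonaute proteins loaded with these pieces guide DNA methylation back to the sequence they came from. Because the precursor is double-stranded, reads come from both strands, and a long transposon can give a continuous stretch of such reads.

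The duckweeds differed widely in how many long loci they had. Wa8730 held 90.5% of all 8265 loci, at 21.3 per Mb spanned by its chromosomes. Sp9509 had 2.42 per Mb, the M chromosomes of Lj8627 1.02, Lg7742a 0.157 and the T chromosomes of Lj8627 0.0795. Short loci, counted as listed, were spread less unevenly: 57.8 per Mb in Wa8730, 13.8 on M, 4.14 in Sp9509, 2.89 on T and 2.88 in Lg7742a. Sp9509 therefore had fewer listed short loci per Mb than the M chromosomes but more long ones. Short loci had a median of 20 reads in Sp9509 and 13 in Wa8730, but 6 on M and 5 on T and in Lg7742a. With at least 10 reads, 893 of 908 both-strand 24 nt loci were left in Sp9509 and 23290 of 27785 in Wa8730. That minimum left 725 of 4998 on M, 162 of 1474 in Lg7742a and 76 of 1232 on T. Comparisons of short loci per Mb thus depend on how few reads a listed locus may have. Together the long loci of Wa8730 had a listed length of 8093 kb, which is 2.30% of the span, compared with 0.319% in Sp9509, 0.0867% on M, 0.0130% in Lg7742a and 0.00613% on T.

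Sp9509 had the highest share of long loci. Of its both-strand 24 nt loci 36.9% exceeded 600 bp (95% Wilson interval 33.8 to 40.1), against 26.9% in Wa8730 (26.4 to 27.4), 6.84% on M (6.18 to 7.58), 5.16% in Lg7742a (4.14 to 6.41) and 2.68% on T (1.91 to 3.74). The order depended on loci with few reads. With at least 10 reads per locus, the shares were 37.5% in Sp9509, 32.1% in Wa8730, 40.7% on M, 42.0% in Lg7742a and 34.2% on T. This minimum left 162 both-strand 24 nt loci in Lg7742a and 76 on T, against 23290 in Wa8730.

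At like read numbers the loci differed in extent. Among both-strand 24 nt loci of 20 to 30 reads, 84.6% of 26 in Lg7742a and 92.3% of 65 in Lj8627 exceeded 600 bp, compared with 43.2% of 4751 in Wa8730 and 9.76% of 246 in Sp9509. The same number of reads was thus listed over more sequence in the Lemna accessions. The listed minimum count differs between the lists, and its part in this difference was not tested.

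The 24 nt class did not lead in length everywhere. In Wa8730, 26.9% of both-strand 24 nt loci were over 600 bp, against 16.9% of both-strand 21 nt loci (14.3 to 19.7) and 12.5% of 22 nt loci (10.1 to 15.4). In Sp9509 the 24 nt share of 36.9% lay beside 35.6% for 21 nt (32.5 to 38.8) and 24.4% for 22 nt (20.3 to 29.2). The Lemna genomes had the reverse order. On T chromosomes the 24 nt share was 2.68%, against 33.4% of 22 nt loci (30.9 to 36.0) and 20.04% of 21 nt loci (18.1 to 22.2). On M chromosomes it was 6.84%, against 19.4% of 22 nt and 12.3% of 21 nt loci. In Lg7742a it was 5.16%, against 28.4% and 19.96%. Small RNAs of 21 and 22 nt arise mostly from transcripts made by RNA polymerase II and act on RNA. The reverse order in Lemna was not kept when loci of fewer than 20 reads were left out. Long loci then made up 95.1% of the 103 remaining 24 nt loci on M, against 84.5% of 155 for 22 nt. In Lg7742a the shares were nearly alike, at 86.7% of 30 against 85.0% of 153. On T they were 100% of 6 against 81.4% of 387, and 6 loci can show little. In Wa8730 the 24 nt class still led, at 70.7% against 31.9% for 21 nt and 53.8% for 22 nt. In Sp9509 the share was 53.6% for 24 nt, against 55.8% for 21 nt loci.

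**Figure D1:**
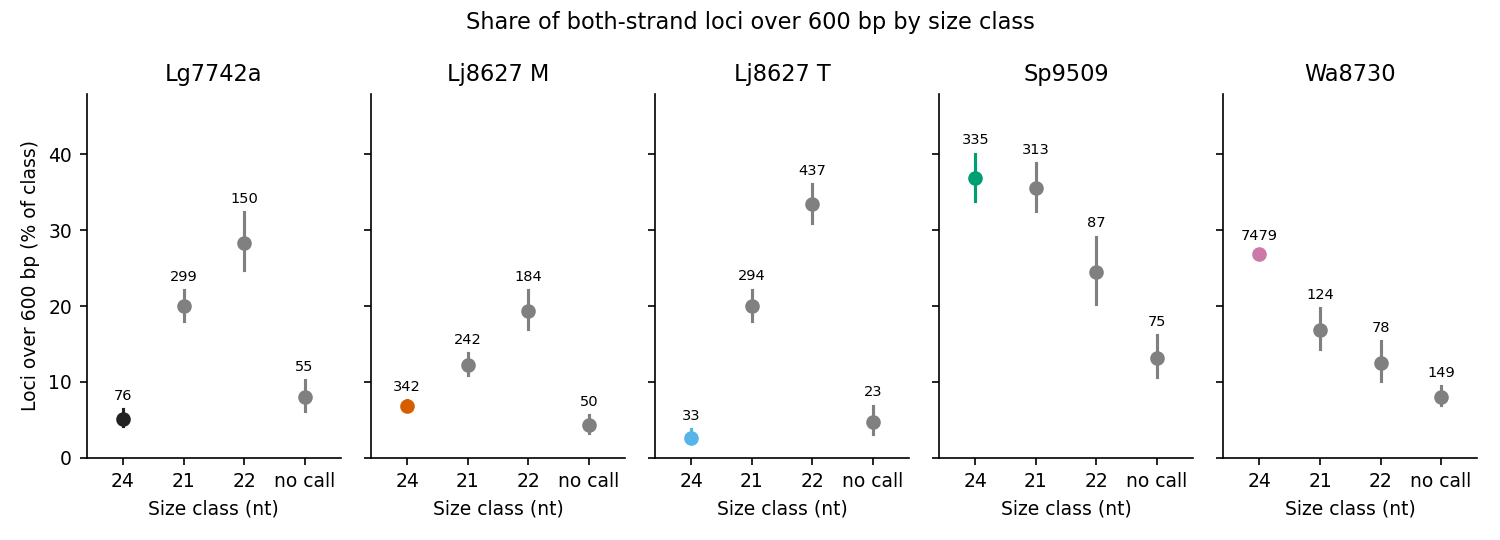
Share of both-strand loci over 600 bp (vertical axis, % of the class) for the 24, 21 and 22 nt classes and loci with no size call, in 5 panels; points are shares, bars 95% Wilson intervals and numbers above them the loci over 600 bp. The 24 nt class stands above the other classes in Wa8730 at 26.9% and lies next to the 21 nt class in Sp9509, whereas on T chromosomes it is at 2.68% under the 33.4% of the 22 nt class.

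Strand and length went together within the 24 nt class. Single-strand 24 nt loci seldom exceeded 600 bp: 48 of 2119 in Wa8730 (2.27%), 2 of 132 in Sp9509, 22 of 2397 in Lj8627 and 9 of 773 in Lg7742a. Both-strand loci were long in 26.9%, 36.9%, 6.02% and 5.16% of cases in the same accessions. The shares depended on reads. With at least 20 reads, 30.3% of 89 single-strand loci were long in Wa8730 and 4.17% of 48 in Sp9509. In Lj8627 it was 8.33% of 24 and in Lg7742a 16.7% of 36. Both-strand loci with at least 20 reads were long in 70.7%, 53.6%, 95.4% and 86.7% of cases in that order.

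Long loci were mostly just long enough in Lemna and reached several kb in the other genera. The median listed length was 925 bp in Sp9509 (quartiles 752 to 1600), 848 bp in Wa8730 (718 to 1180), 754 bp in Lg7742a (691 to 869), 753 bp on M (667 to 900) and 731 bp on T (660 to 768). In Sp9509 45.4% of long loci passed 1000 bp and 17.9% passed 2000 bp. Wa8730 had 36.0% over 1000 bp and 6.99% over 2000 bp, and 70 of its loci passed 4000 bp, as did 5 in Sp9509. Over 2000 bp there were 4 loci on M, 1 in Lg7742a and none of 33 on T. Short loci had medians of 412 to 414 bp in every accession, near the shortest listed length of 401 bp, and Wa8730 had the only shorter ones, down to 269 bp.

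**Figure D2:**
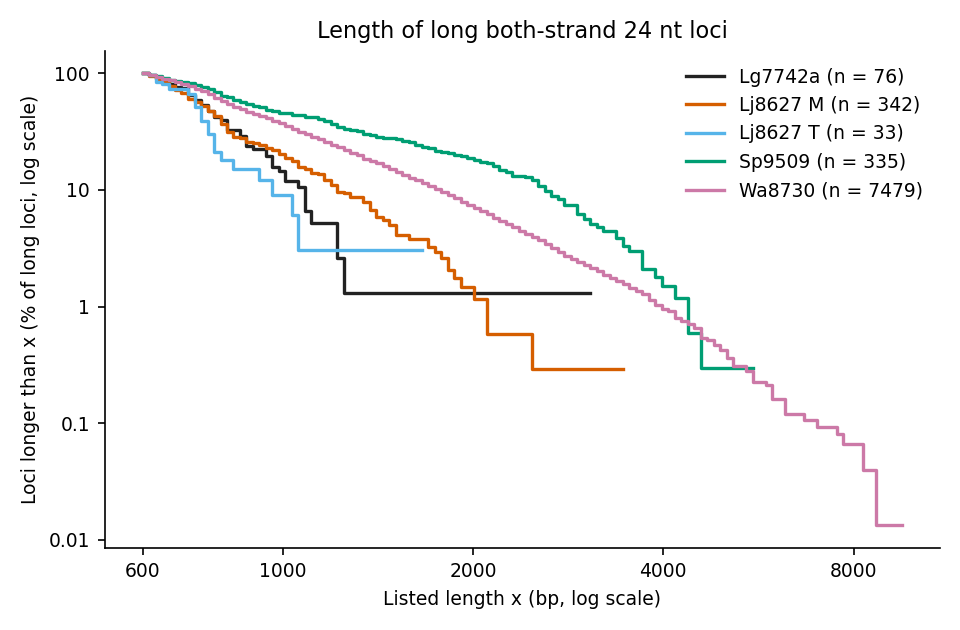
Share of long loci longer than a given length (vertical axis, % of long loci, log scale) against listed length (horizontal axis, bp, log scale), with 1 line per accession or chromosome set. The Sp9509 line lies above the others between 1000 and 4000 bp, the Wa8730 line runs on to 9614 bp, and the T line ends at 1691 bp.

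Each accession had its own longest loci. In Wa8730 the longest spanned 9614 bp on chr2 from 24180759 to 24190372 and held 2355 reads, or 245 per kb, the most reads of any long locus. The next was 8664 bp on chr14 from 13668920 to 13677583, with 963 reads. The third longest, of 8510 bp with 728 reads, began at the first base of chr6 and ended at 8510. Positions in Lg7742a, Lj8627 and Wa8730 refer to assembly asm202106v1, and those in Sp9509 to asm3v1.

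In Sp9509 the longest locus, 5661 bp on chr19 from 3527 to 9187, held 720 reads and had both the most reads and the highest density, 127 reads per kb. The others were 4486 bp on chr6 from 6371440 to 6375925, with 347 reads, and 4298 bp on chr14 from 1261763 to 1266060, with 501 reads. In Lg7742a a single locus stood apart: 3134 bp on chr1 from 29619475 to 29622608, with 124 reads. Next in length came 1231 bp on chr12 from 3734331 to 3735561, with 41 reads. The locus on chr1 was the only long locus of Lg7742a with 100 reads or more.

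On the M chromosomes the longest locus measured 3498 bp, on chr7M from 12004516 to 12008013, and its 170 reads were the most in Lj8627. A locus of 2425 bp on chr12M, from 698692 to 701116, held 70 reads, and one of 2086 bp on chr1M, from 2881561 to 2883646, held 78. The T chromosomes reached 1691 bp, on chr20T from 2948957 to 2950647, with 35 reads. The T locus with most reads, 45 over 907 bp, lay on chr3T from 7118090 to 7118996.

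Next to the limit of 600 bp, loci just inside and just outside the rule had these reads. In Wa8730 a locus of 601 bp held 26 reads and one of 600 bp held 19. In Sp9509 a locus of 602 bp held 43 reads and one of 599 bp held 27. A locus of 602 bp in Lg7742a held 13 reads and one of 600 bp held 16. On M the nearest loci were 601 bp with 10 reads and 600 bp with 11, and on T 604 bp with 10 reads and 595 bp with 6.

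Long loci held much of the 24 nt output in Sp9509 and Wa8730 and little in Lemna. They took 63.1% of the reads of all 24 nt loci on chromosomes in Sp9509 (62.7 to 63.5) and 56.5% in Wa8730 (56.4 to 56.7). Reads are grouped in loci, so these intervals are too narrow. Without the 10 long loci with most reads, the shares were 59.5% and 55.98%, outside both intervals. The share of 24 nt reads was 14.2% on M, 4.97% on T and 4.56% in Lg7742a. Single-strand 24 nt loci, which cannot meet the rule, are part of this total. Of the reads of both-strand 24 nt loci alone, long loci held 73.1% in Sp9509 and 58.5% in Wa8730. On M it was 18.5%, in Lg7742a 15.5% and on T 7.52%, so Lg7742a then lay nearer to M than to T. In reads the totals were 395425 in Wa8730, 32277 in Sp9509, 6526 on M, 1427 in Lg7742a and 514 on T. Wa8730 thus had 6.999% of all its reads in loci within long loci, against 0.448% in Sp9509, 0.131% in Lj8627 and 0.0285% in Lg7742a. No small group of loci carried these totals in Wa8730, where the 10 with most reads, of 7479, held 2.28%. The top 10 held 14.0% in Sp9509 (of 335 loci), 11.9% in Lj8627 (of 375) and 28.4% in Lg7742a (of 76). Because 10 loci are a different part of each set, these shares do not rank the accessions by concentration.

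A typical long locus rested on few reads. The median was 60 reads in Sp9509 (lowest 17, highest 720), 38 in Wa8730 (11 to 2355), 16 in Lg7742a (7 to 124) and 14 in Lj8627 (6 to 170), pooled over 3 replicates. Fewer than 10 reads were listed for 10.53% of long loci in Lg7742a and 14.4% in Lj8627, and for none of 335 in Sp9509 or 7479 in Wa8730.

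Per kb of listed length, the median density was 64.8 reads in Sp9509 (quartiles 53.5 to 77.3), 43.6 in Wa8730 (35.9 to 52.1), 21.2 in Lg7742a (17.6 to 25.5) and 19.3 in Lj8627 (15.1 to 24.7). When reads were scaled to the total of Lg7742a, the lowest of the 4, these medians were 45.0, 38.6, 21.2 and 17.9. Long loci were denser than short ones in every accession: the median of short loci was 45.8 in Sp9509, 31.0 in Wa8730, 12.1 in Lg7742a and 12.4 in Lj8627. Reads were not part of the rule, but a locus of few reads can hardly be listed as long, so density and length are not independent measures.

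Density went on climbing with length among the long loci. In Sp9509 the median was 55.6 reads per kb at 601 to 800 bp, 65.7 at 1001 to 2000 bp, 82.5 at 2001 to 4000 bp and 123 in the 5 loci over 4000 bp. In Wa8730 it was 38.8, 47.7, 58.9 and 71.0 over the same ranges. Lj8627 had 17.7 reads per kb at 601 to 800 bp and 26.2 at 1001 to 2000 bp. In Lg7742a the median was 19.5 at 601 to 800 bp and 23.2 at 801 to 1000 bp, but 22.3 in the 9 loci of 1001 to 2000 bp. Loci of 2001 to 4000 bp made up 16.4% of the long loci of Sp9509 and held 39.2% of their reads, and in Wa8730 6.06% of the long loci held 18.4% in that range.

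**Figure D3:**
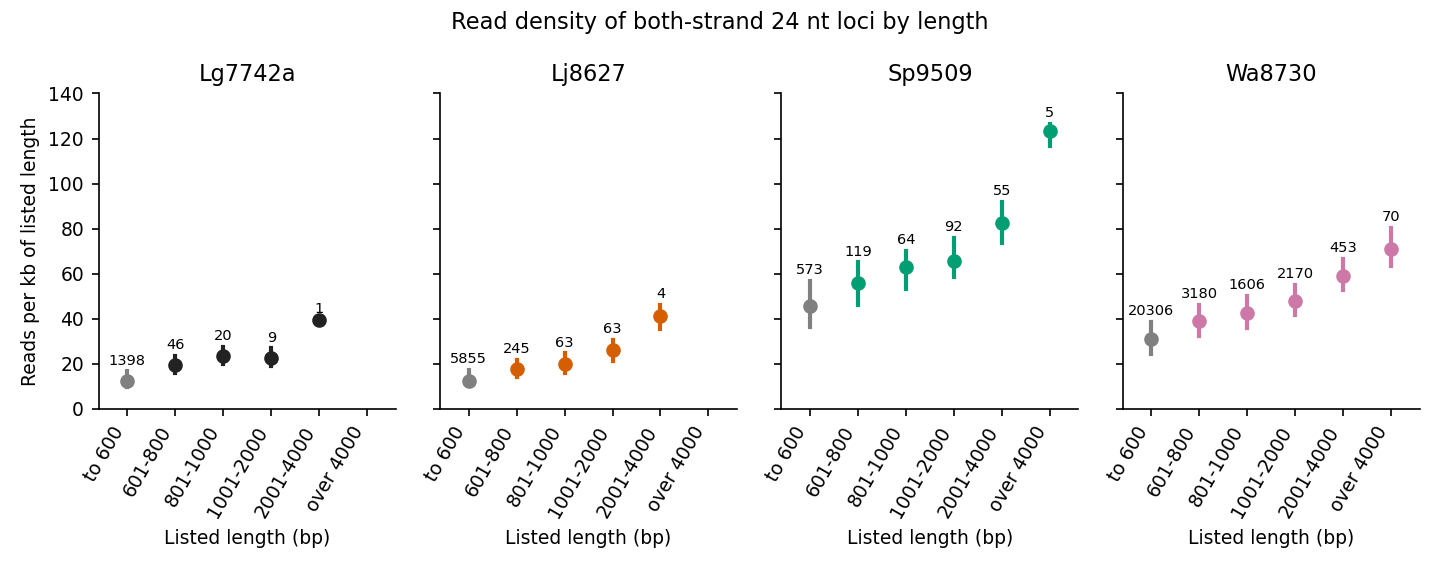
Reads per kb of listed length (vertical axis) by length range in bp (horizontal axis) in the 4 accessions; points are medians, bars run between quartiles, numbers are loci, and grey marks the loci of 600 bp or less. Medians climb with length except between 23.2 and 22.3 in Lg7742a, and come to 123 reads per kb over 4000 bp in Sp9509 and 71.0 in Wa8730.

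One locus of Wa8730 was far denser than the others. On chr5 from 17778150 to 17779775 it held 863 reads over 1626 bp, 531 reads per kb, against 245 for the next densest. Less than 10 kb away on chr5, the long locus from 17786066 to 17787230 had 153 reads per kb. In Sp9509 the densest loci were nearly alike: after chr19 came chr18 from 5308360 to 5312646, chr7 from 3638046 to 3642017 and chr7 from 1444 to 5569, all between 123 and 127 reads per kb and 3972 to 5661 bp long. In Lj8627 the densest were 72.3 and 60.4 reads per kb, on chr7M from 11979339 to 11979974 and from 11975467 to 11976857. The highest in Lg7742a was 39.6, in its longest locus.

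Most long loci had another under 10 kb away in Wa8730 and Sp9509, and most had none in Lemna, where fewer were listed per Mb. Another long locus was under 10 kb away for 78.7% of those in Wa8730 (77.8 to 79.6) and 57.0% in Sp9509 (51.7 to 62.2), compared with 23.7% in Lg7742a (15.5 to 34.4), 22.5% on M (18.4 to 27.2) and 15.2% on T (6.65 to 30.9). For short loci, a long locus was under 10 kb away for 57.2% in Wa8730 and 41.7% in Sp9509. It was so for 6.89% on M, 5.79% in Lg7742a and 1.75% on T. Long loci thus had a long neighbour more often than short loci as listed did in every accession and set, also in Lemna. Short loci had a median of only 6 reads on M and 5 on T and in Lg7742a, and this comparison was not repeated with a minimum of reads. The median distance to the nearest other long locus on the same chromosome was 1.10 kb in Wa8730, 1.40 kb in Sp9509, 215 kb on M, 1388 kb on T and 1608 kb in Lg7742a. Sp9509 and Wa8730 thus had similar median distances at 2.42 and 21.3 long loci per Mb.

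The neighbours were often next to each other. The nearest other both-strand 24 nt locus of any length was a median of 250 bp away in Wa8730, 267 bp in Sp9509, 1472 bp in Lg7742a and 4919 bp in Lj8627. It was under 500 bp away for 68.8% of long loci in Wa8730 and 63.6% in Sp9509. A long stretch of sequence may thus be listed as several loci, and the number of loci depends on how reads were joined, a setting not given here.

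Runs of long loci with gaps under 10 kb reached 40 loci in Wa8730, on chr7 from 8657784 to 8795018. This stretch of 137235 bp held 1849 reads in its long loci, which covered 29.8% of it, besides 56 short loci and 7 loci of other kinds. A run on chr20 of Wa8730, from 2303075 to 2341984, had 23 long loci covering 72.3% of 38910 bp. Runs of at least 5 long loci numbered 370 in Wa8730 and held 35.5% of its long loci. Sp9509 had no run above 4 loci. Its runs of 4 lay on chr14 from 1561957 to 1570400, with 236 reads, and on chr13 from 3402747 to 3411851, with 205. Lg7742a had a single run of 4, on chr5 from 24992942 to 24998650, with 79 reads.

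On M chromosomes the longest run had 7 long loci, on chr7M from 11995946 to 12010371, with 408 reads over 14426 bp, of which 74.4% was covered. A run of 3 lay just before it, from 11975467 to 11979974, with 224 reads and 91.0% covered. Between 11944600 and 12010371 of chr7M there were 11 long loci with 648 reads, 9.93% of all reads in long loci on M. Their densities went from 17.4 to 72.3 reads per kb, with a median of 36.4, against 19.2 over all long loci on M. The longest run on T had 3 loci, on chr21T from 2467262 to 2471334, with 57 reads.

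In windows of 1 Mb the variance of the number of long loci over its mean was 10.996 in Wa8730, 1.78 in Sp9509, 1.64 on M, 1.34 in Lg7742a and 1.30 on T, where independent placement gives about 1. For short loci it was 10.96 in Wa8730, 1.89 in Sp9509, 3.76 on M, 1.74 in Lg7742a and 1.70 on T. The value also depends on the mean number per window, so accessions cannot be ranked by it. No long locus was found in 13 of 341 windows in Wa8730, 26 of 126 in Sp9509, 154 of 327 on M, 414 of 475 in Lg7742a and 377 of 404 on T. The fullest window of Wa8730 was the first 1 Mb of chr14, with 66 long loci and 6604 reads. In Sp9509 it was chr13 from 3000001 to 4000000, with 8 loci and 742 reads, and on M the first 1 Mb of chr1M, with 8 loci and 198 reads.

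Chromosomes of an accession also differed. In Wa8730 long loci per Mb lay between 12.6 on chr8 and 35.6 on chr20, with a median of 21.3, and chr14 followed chr20 at 34.5. In Sp9509 they lay between 1.01 on chr19 (4 loci) and 3.56 on chr11 (24 loci). The chromosome with the fewest long loci per Mb in Sp9509 thus carried the longest. On M chromosomes the range was 0.271 on chr11M (4 loci) to 1.68 on chr7M (29 loci), and on T chromosomes 0 on 7 of 21 to 0.462 on chr21T (4 loci). In Lg7742a 3 of 21 chromosomes had none, and chr18 had the most at 0.385 (5 loci). Values from 4 or 5 loci carry a large counting error, and differences between chromosomes were not tested.

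Along the chromosomes, long loci of Wa8730 leaned towards both ends. The outer 20% of the span at each end held 48.04% of its long loci (46.9 to 49.2) and 45.4% of its short loci (44.8 to 46.1). In Sp9509 these shares were 42.7% of long loci (37.5 to 48.04) and 37.3% of short loci (33.5 to 41.4), with intervals that overlap. In the Lemna genomes the shares were 44.7% (39.6 to 50.0) against 50.6% (49.2 to 52.1) on M, 33.3% (19.8 to 50.4) against 49.2% (46.4 to 52.0) on T, and 39.5% (29.2 to 50.7) against 50.2% (47.6 to 52.8) in Lg7742a, for long against short loci, and the intervals of each pair overlap. On M the first 10% held 17.3% of long and 13.8% of short loci and the last 10% held 14.6% and 17.8%, so no direction holds for M. An even spread would give 40%. In Lg7742a the first 10% of the span held 2 of 76 long loci (2.63%) against 15.8% of short loci.

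**Figure D4:**
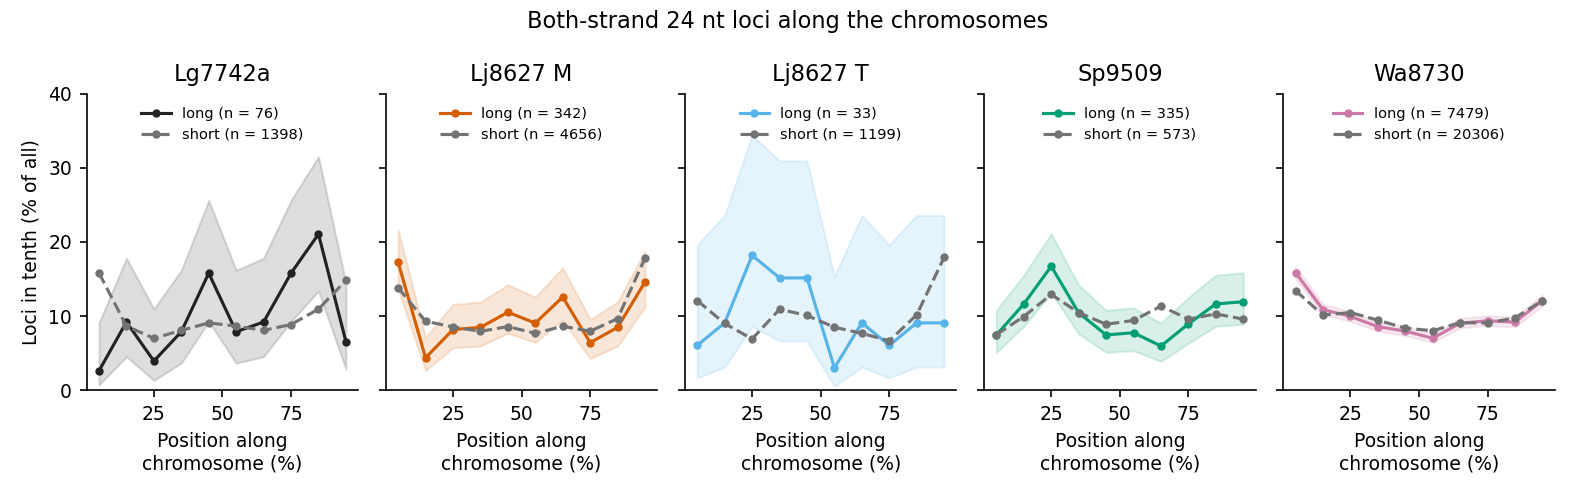
Share of loci (vertical axis, %) in each 10% of the chromosome span (horizontal axis, %), all chromosomes of an accession or set laid together; coloured lines are long loci with 95% Wilson intervals as bands, and dashed grey lines are short loci. Wa8730 and the M chromosomes have peaks in the first 10%, at 15.9% and 17.3% of long loci, while Lg7742a has 2.63% there.

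The very ends of chromosomes were looked at after the longest loci had been seen. Long loci starting in the first 20 kb of a chromosome made up 3.58% in Sp9509 (12 of 335, 2.06 to 6.16), 3.22% on M (11 of 342) and 0.655% in Wa8730 (49 of 7479, 0.496 to 0.865). Short loci did so in 1.05% of cases in Sp9509 (6 of 573, 0.481 to 2.27), 0.816% on M (38 of 4656) and 0.335% in Wa8730 (0.264 to 0.424). In Lg7742a it was 0 of 76 long loci, which allows a share of up to 3.95% when a count of 0 is taken to allow 3 loci (the upper Wilson limit is 4.81%), against 0.644% of short loci.

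With the 20 kb before the last listed locus added, 21 long loci of Sp9509 lay at 14 of 40 chromosome ends. Their median density was 82.7 reads per kb, against 64.6 for the other long loci, and 13 of the 21 had over 80 reads per kb, compared with 58 of the other 314. The median listed length was 943 bp for the 21 and 924 bp for the others. Over 2000 bp there were 9 of the 21, against 60 of all 335 long loci of Sp9509. Density climbed with length, and the part of length in this difference was not tested. The 21 loci include the longest locus of Sp9509, on chr19, and the dense loci on chr18 and at the start of chr7. The last locus of chr18, of 4287 bp, held 543 reads. In Wa8730 the corresponding 156 loci had a median of 51.0 reads per kb, against 43.5 elsewhere. On M the medians were 19.9 and 19.1. The far end was set by the last locus listed, so a locus there is counted by construction.

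The company of long loci differed by accession. In Wa8730 another 24 nt locus was under 10 kb away for 97.4% of long and 90.1% of short loci. The shares were 86.0% of long and 74.9% of short loci in Sp9509, and 69.7% and 26.0% in Lg7742a. On M they were 69.0% and 48.3%, and on T 48.5% and 23.4%. Most short loci of the Lemna sets had fewer than 10 reads, and no minimum of reads was applied to the shares of neighbours. A 21 nt locus was that near in Wa8730 for 4.68% of long (4.22 to 5.18) and 5.29% of short loci (4.99 to 5.61). In Sp9509 a 21 nt locus was within 10 kb of 48.4% of long loci (43.1 to 53.7) and 37.5% of short loci (33.7 to 41.6), and a 22 nt locus within 10 kb of 22.4% and 18.5%. In Lg7742a a 21 nt locus was near 39.5% of long loci (29.2 to 50.7) and 18.1% of short loci (16.2 to 20.2), a 22 nt locus near 18.4% and 6.58%, and a 23 nt locus near 22.4% and 6.51%.

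The M chromosomes showed the same direction, with a 21 nt locus near 33.6% of long loci (28.8 to 38.8) and 22.4% of short loci (21.3 to 23.7), and a 23 nt locus near 21.1% and 12.5%. On T chromosomes a 21 nt locus was near 12.1% of the 33 long loci (4.82 to 27.3) and 13.1% of short loci, whereas a 23 nt locus was near 24.2% (12.8 to 41.0) and 4.42% (3.40 to 5.74). Loci of 23 nt are commonly by-products of the same cutting that gives 24 nt pieces. MicroRNA hairpins were rare neighbours: within 10 kb of 21 long loci in Wa8730, 7 in Sp9509, 1 in Lj8627 and 0 of 76 in Lg7742a.

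Inside Lj8627, M and T chromosomes were read in the same libraries. The M set had 342 long loci and the T set 33, that is 10.4 times as many (7.26 to 14.8), and every one of 21 chromosome pairs had more on M. For short loci, with 4656 and 1199, the M to T ratio was 3.88 (3.64 to 4.14). The T set spanned 415 Mb and the M set 337 Mb, so per Mb the ratio of long loci was 12.8. Pair 1 had 41 long loci on M and 5 on T, and pair 7 had 29 and 3. Among pairs with loci on both, the lowest M to T ratios were in pair 21, with 11 and 4, and in pair 10, with 8 and 2. No long locus was on T in 7 pairs, among them pair 14 with 18 on M and pair 8 with 16.

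**Figure D5:**
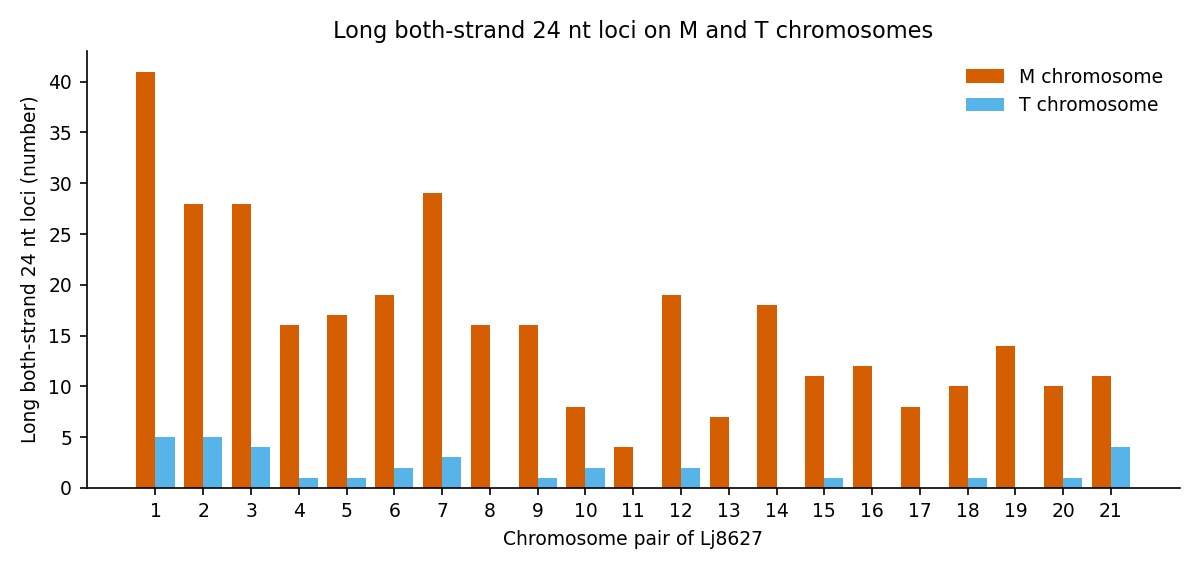
Number of long both-strand 24 nt loci (vertical axis) on the M and T chromosomes of each of 21 pairs of Lj8627 (horizontal axis). M bars stand above T bars in all 21 pairs, with 41 against 5 in pair 1, and T has no bar in 7 pairs.

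The ratio of M to T was higher for longer loci: 8.07 at 601 to 800 bp (218 and 27 loci, 5.43 to 12.01) and 21.3 over 1000 bp (64 and 3 loci, 7.09 to 64.2), with intervals that overlap. By reads, it was 6.71 for long loci of fewer than 10 reads (47 and 7, 3.09 to 14.6) and 9.85 for 10 to 19 reads (197 and 20, 6.24 to 15.5). For 20 reads or more it was 16.3 (98 and 6, 7.32 to 36.4). These intervals overlap too, so no rise with reads can be read from them. With at least 10 reads the ratio was 11.3 for long loci (295 and 26) and 8.60 for short loci (430 and 50, 6.42 to 11.5), which lie closer together than the 10.4 and 3.88 of the whole list.

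Both-strand 22 nt loci over 600 bp were fewer on M, with 184 against 437, an M to T ratio of 0.421 (0.355 to 0.5001) or 0.518 per Mb, and 19 of 21 pairs had more of them on T. The 21 nt class had 242 and 294 such loci, and its M to T ratio was 0.823 (0.695 to 0.976), but 1.01 per Mb spanned. The 23 nt class, with 14 on M and 4 on T, again had more on M.

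Once listed, long loci of both sets had similar median densities. The median was 19.2 reads per kb on M (quartiles 15.2 to 24.7) and 20.3 on T (13.7 to 24.2), and the median count was 14 reads on each. The lowest count was 6 reads on each, so both medians lie near the lowest reads listed and can show little about a difference. With 20 reads or more there were 98 of 342 long loci on M and 6 of 33 on T. In summed reads, M had 6526 and T had 514. Reads that match both sets may have been placed on either, and the rule for placing them is not given here.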

How the data were processed

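The deposited values were counts of reads per locus, not normalized, in which the authors combined 3 replicates. Per the source column and the names of the files, ShortStack called the loci on assembly asm202106v1 (Lg7742a, Lj8627, Wa8730) or asm3v1 (Sp9509). fastp 0.20.1 and deepTools appear in the submitters' processing notes, with no role stated; alignment settings and locus thresholds were not given in the sources used. Per the labels' protocols, small RNA was enriched before NEXTflex libraries were sequenced on a NextSeq 500.

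Mature and star lines, hairpins, scaffolds and organelles were left out of the loci described. Reads per kb are reads divided by listed length. Spans run to the last listed locus of a chromosome, and gaps are counted between locus edges. Intervals are 95% Wilson intervals, and for ratios they come from the share of the summed count. All cover counting error only, since the 3 replicates were combined. Reads carry no molecular identifiers. Depth was 5005362 to 7197515 reads in loci; total library depth was not used here.

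The members, measures and alternatives were chosen with earlier results of these data known. Named loci were, per accession or chromosome set, the 3 longest, those with most reads and most reads per kb, the fullest 1 Mb window, the longest run with gaps under 10 kb and the loci next to 600 bp. Other loci, the chr7M stretch, chromosome ends with the cut of 80 reads per kb used there, loci of 20 to 30 reads and length ranges were singled out after their values were seen. Sequences and gene annotations were not used here. Python 3.11.15, pandas 2.3.3, numpy 2.4.6, scipy 1.17.1 and matplotlib 3.10.9 were used, and the selection and the gaps were tested on simulated data.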

Additional observations from a re-analysis of the deposited data

Results flagged for a closer look

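Loci on unplaced scaffolds stand outside the comparisons above and still held long both-strand 24 nt loci. Lj8627 had 30 of them on 22 scaffolds, up to 1445 bp long and with 628 reads in all, at a median of 21.4 reads per kb. Wa8730 had 16 on 12 scaffolds, up to 1890 bp long and with 855 reads, at a median of 52.3 reads per kb. They are given because they lie outside the numbered chromosomes, and no control list sets a background for their number. Lg7742a had 1, of 723 bp. None was listed on the organelle genomes of the 4 accessions.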

How the results depend on the processing

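No paired analysis was possible because the lists pool the replicates of each accession, and for the same reason no replicate was left out. The minimum of 20 reads, the chromosome ends and the chr7M stretch were alternatives chosen after seeing the data. Values are for Lg7742a, Lj8627, Sp9509 and Wa8730 in that order unless named, and a change under a minimum follows from which loci were counted. Over 800 bp, long loci numbered 30, 130, 216 and 4299, and with at least 20 reads 26 in Lg7742a and 104 in Lj8627. At least 10 reads brought the share of long loci to 42.0%, 40.1% and 32.1% in Lg7742a, Lj8627 and Wa8730. Summed reads over summed length gave 22.7, 22.2, 73.3 and 48.9 reads per kb, and scaled reads 17.9, 45.0 and 38.6 in Lj8627, Sp9509 and Wa8730. Without the 10 long loci with most reads, long loci held 3.31%, 11.2%, 59.5% and 55.98% of 24 nt reads. In 500 kb windows the variance over mean was 7.31 in Wa8730. Within 50 kb, 29.3% in Lj8627, 63.3% in Sp9509 and 92.5% in Wa8730 had another long locus. The outer 10% at each end held 9.21% in Lg7742a, 30.4% in Lj8627 and 28.0% in Wa8730. Within 2 kb, 55.3%, 41.9% and 90.5% in Lg7742a, Lj8627 and Wa8730 had another 24 nt locus. The M to T ratio of long loci was 20.7 over 800 bp and 9.82 to 11.4 with each chromosome pair left out. The M to T ratio of their reads was 11.1 without the 10 with most reads, 11.4 without the chr7M stretch and 11.7 to 14.4 with each pair left out. No direction between M and T reversed under these alternatives. Numbers of loci, loci per Mb and variance over mean were held to 1.5 times the value reported, the outer 10% to its own interval set against an even split of the outer 20%, and all other values to the counting interval, which is often narrow. By these limits 34 planned and 10 added values stayed inside and 46 planned and 4 added values did not. The low reads per locus in both Lemna accessions limit what their shares can show.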
